A study of Mus musculus with 12 samples.

Results

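The genes described here are 38 genes of connective tissue, extracellular matrix and blood vessels, measured in cultures of bone marrow-derived macrophages with and without the nuclear receptor ERRα. They were listed by name (collagens and other matrix proteins, products of fibroblasts and marrow stroma, and endothelial genes) and found on the array through the transcript accession of each probe. All 38 had a probe, 50 probes in all, among 20887 genes named on the array. Of the 38, 33 passed the filter on dim probes, out of 13116 genes tested. The list was chosen by gene name with earlier results on the processed signals of these same arrays known, genotype and LPS differences among them. The counts of members below and their adjusted p-values therefore describe where the genes stood in the fit over all genes and support nothing by themselves.

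The 4 groups, with 3 arrays each, were ERRα-/- macrophages with LPS, ERRα+/+ macrophages with LPS, ERRα-/- macrophages with PBS and ERRα+/+ macrophages with PBS. Donors were male C57BL6 mice, 6 to 8 weeks of age, and the cells were grown from marrow for 5 to 7 days with macrophage colony-stimulating factor, the growth factor of this lineage. LPS, a lipid of bacterial outer membranes that activates macrophages, was given at 100 ng/mL, and PBS was the solvent. The sources used here do not say which part of the ERRα gene was deleted, in which cells, or for how long LPS was given. Nothing in the labels says that replicates came from separate animals, so p-values measure the spread between these samples, which may be technical. Replicate 1 of each group lay on 1 slide, and replicates 2 and 3 lay on another.

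Each level is the log2 signal of a probe relative to the 75th percentile of its array, and each difference is a difference of such log2 levels ± the standard error of the limma fit. The threshold for a call was 0.05 for the p adjusted over all 13116 genes. On each array 45.4% to 56.7% of the probes were well above background, and 0 spots were saturated. The spread between repeated spots (coefficient of variation) was 12.4% and 8.19% on ERRα+/+ PBS replicates 2 and 3, against 3.75% to 4.59% on the other 10 arrays. Esrra, which encodes ERRα, read 4.2, 3.69 and 3.61 on ERRα-/- LPS arrays, against 5.66, 6.03 and 6.14 on ERRα+/+ LPS arrays. Under PBS it read 2.28, 0.026 and -0.058 on ERRα-/- arrays, against 4.34, 4.19 and 4.49 on ERRα+/+ arrays. Averaged over both treatments its difference was -2.85 ± 0.36 (adjusted p = 0.00391). This checks the labels only if the probe lies within the deletion.

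Extracellular matrix is the protein scaffold around cells. Fibroblasts and marrow stromal cells lay down most fibrillar collagens, and endothelial cells and their neighbours build basement membranes from type IV collagen, laminins and nidogens. Marrow stroma also makes CXCL12 and KIT ligand, which keep blood progenitors in their niche. Marrow from which macrophages are grown contains such cells, and macrophages themselves make some matrix proteins, among them fibronectin.

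Most of the measured matrix and vessel genes, 29 of 33, read lower in ERRα-/- macrophage cultures than in ERRα+/+ cultures. Averaged over LPS and PBS, 15 of the 33 tested members were called lower in ERRα-/- cells and 1 higher, against 0.953% and 0.374% of all 13116 genes. The 15 lower ones were Col4a1, Col4a2, Nid1, Col5a1, Sparc, Fn1, Postn, Thbs2, Cxcl12, Cxcl14, Cldn5, Sox18, Emcn, Plvap and Stab2, and the higher one was Lox. The median difference of the 33 members was -1.01, against -0.02 over all genes tested. In bulk RNA, fewer cells of a type and less RNA per cell cannot be told apart.

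The filter bears on that count. All 33 tested members were well above background on 3 of 3 ERRα+/+ PBS arrays, while 23 were so on the ERRα-/- PBS arrays, 24 on the ERRα-/- LPS arrays and 25 on the ERRα+/+ LPS arrays. The 8 members Col5a1, Postn, Cxcl14, Thbs2, Nid2, Sox18, Emcn and Ptprb passed the filter only through ERRα+/+ PBS cells, a filter that favours higher values there, though Nid2 and Emcn each had an ERRα+/+ LPS array above all 3 ERRα+/+ PBS arrays. Of the 6 among them that were called in the averaged comparison, 5 stayed called with no filter on any probe, and Thbs2 did not (adjusted p = 0.0736). That fit uses the same dim readings, so it cannot show that these calls are free of the background. With normexp background correction all 6 calls ended, with limma adjusted p from 0.0991 for Col5a1 to 0.536 for Emcn. The 23 members above background on all 12 arrays depended on no group for passing. Of these 23, 7 were called lower in ERRα-/- cells (Col4a1, Col4a2, Sparc, Fn1, Cxcl12, Plvap and Stab2) and 1 higher (Lox), with a median difference of -0.87.

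**Figure D1:**
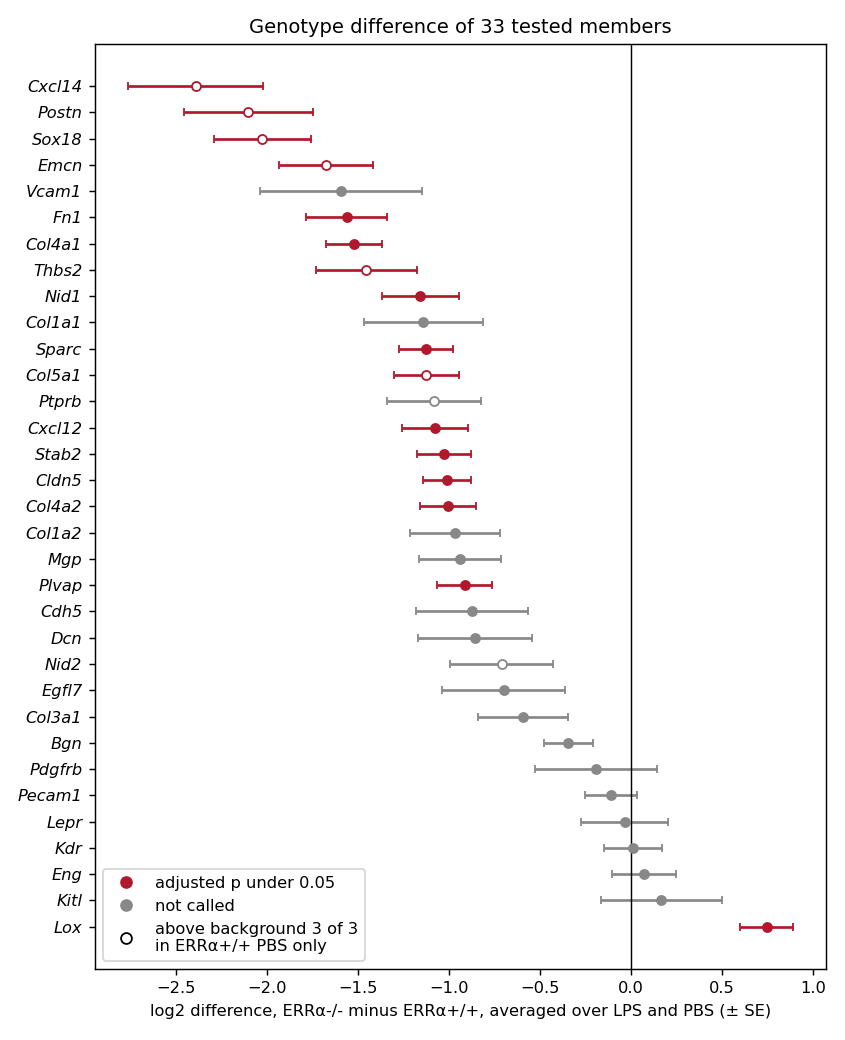
The horizontal axis gives the log2 difference of ERRα-/- minus ERRα+/+ cells averaged over LPS and PBS for 33 members, with standard errors of the limma fit (6 arrays per genotype). Red points passed the threshold, open points are the 8 members that were above background on 3 of 3 arrays in ERRα+/+ PBS cells only, whose ERRα-/- levels are partly or wholly below background, and 29 of the 33 points lie below 0.

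Col4a1 had the lowest adjusted p of the members in the averaged comparison. Col4a1 and Col4a2 encode the chains of the common type IV collagen, the network-forming collagen of basement membranes. Both genes lie head to head on mouse chromosome 8 and are transcribed outward from a shared promoter region. Their promoter windows are shown because the members of this pair could be compared as neighbours that share regulatory sequence. Each window spans 250 bases before to 50 bases after the annotated start (RefSeq, build GRCm38.p6), Col4a1 at chr8:11312777-11313076 on the minus strand and Col4a2 at chr8:11312555-11312854 on the plus strand. The annotated starts lie 21 bases apart, Col4a1 at 11312826 and Col4a2 at 11312805, so the annotated transcripts overlap between them. The bases before each start therefore lie on the transcribed side of the other gene. Capitals mark the 78 bases that both windows hold, read on opposite strands.
Col4a1: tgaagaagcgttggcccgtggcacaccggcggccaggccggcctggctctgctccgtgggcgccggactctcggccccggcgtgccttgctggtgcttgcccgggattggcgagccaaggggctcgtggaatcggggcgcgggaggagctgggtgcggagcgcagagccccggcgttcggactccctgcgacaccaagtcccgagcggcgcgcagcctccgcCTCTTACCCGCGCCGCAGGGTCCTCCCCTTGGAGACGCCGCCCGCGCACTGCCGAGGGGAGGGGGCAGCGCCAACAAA
Col4a2: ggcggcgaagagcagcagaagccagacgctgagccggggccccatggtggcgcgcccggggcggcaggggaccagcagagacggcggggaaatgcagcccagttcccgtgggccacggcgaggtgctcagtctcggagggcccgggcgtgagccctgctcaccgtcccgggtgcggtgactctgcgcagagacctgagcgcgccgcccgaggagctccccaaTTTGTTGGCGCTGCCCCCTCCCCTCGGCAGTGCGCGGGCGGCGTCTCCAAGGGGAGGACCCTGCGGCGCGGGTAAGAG
The bases G and C made up 74.0% of the Col4a1 window and 73.7% of the Col4a2 window. Promoter windows were found for 23 of the 38 members. The ERR response element, searched as TNAAGGTCA on both strands, matched 0 of the 23 windows, against 1.43% of 27025 genes with a window. At so low a share 0 matches are likely in any 23 windows, so this count says nothing particular about the members. The NF-kB consensus matched 4 of the 23 (Col4a2, Thbs2, Kitl and Kdr; 17.4%), against 9.55% of genes. These are matches of letters in a short window and not sites of binding.

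Col4a1 read -3.19, -2.94 and -3.05 on ERRα-/- LPS arrays, against -2.15, -1.24 and -1.70 on ERRα+/+ LPS arrays. With PBS it read -3.61, -3.27 and -3.34 in ERRα-/- cells, against -1.80, -1.55 and -1.83 in ERRα+/+ cells. The genotypes did not overlap under either treatment. The averaged difference was -1.52 ± 0.15 (2.87-fold lower, adjusted p = 0.00174), and the LPS differences of 0.35 ± 0.22 in ERRα-/- cells and 0.033 ± 0.22 in ERRα+/+ cells were not called. Col4a2 read -1.88, -1.97 and -2.18 on ERRα-/- LPS arrays, against -1.64, -1.13 and -1.36 on ERRα+/+ LPS arrays, and -3.10, -3.40 and -3.40 on ERRα-/- PBS arrays, against -1.46, -2.11 and -2.19 on ERRα+/+ PBS arrays. Again the genotypes did not overlap, and the averaged difference was -1.01 ± 0.15 (adjusted p = 0.0108). LPS raised Col4a2 in ERRα-/- cells, by 1.29 ± 0.22 (adjusted p = 0.000855), while its difference in ERRα+/+ cells of 0.54 ± 0.22 missed the threshold (adjusted p = 0.0647) and passed it with the replicate number as a block (adjusted p = 0.046), with quantile normalization (0.0468) and with normexp background correction (0.0334). The levels of the pair correlated with r = 0.763 over the 12 arrays, which share groups and slides.

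The nidogens join laminin to type IV collagen. Nid1 read -4.14, -3.33 and -4.14 in ERRα-/- LPS cells, against -3.37, -2.62 and -2.93 in ERRα+/+ LPS cells. In PBS cultures Nid1 read -4.28, -3.54 and -3.89 in ERRα-/- cells, against -2.78, -2.14 and -2.55 in ERRα+/+ cells. Its averaged difference was -1.16 ± 0.21 (adjusted p = 0.0258), and 2 of 3 ERRα-/- arrays were above background under each treatment. That call rested on 1 of 3 Nid1 probes, since the others were not kept, and it ended without any 1 of 7 arrays (ERRα-/- LPS replicate 3, ERRα+/+ LPS replicates 2 and 3, ERRα-/- PBS replicates 1 and 3, ERRα+/+ PBS replicates 2 and 3; adjusted p up to 0.0805). Nid2 was above background on 0 of 3 ERRα-/- LPS arrays, 1 of 3 ERRα+/+ LPS arrays, 1 of 3 ERRα-/- PBS arrays and 3 of 3 ERRα+/+ PBS arrays, and was not called.

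The matrix glycoproteins Sparc and Fn1 were lower in ERRα-/- cells. Sparc, a collagen-binding glycoprotein, read 2.22, 2.96 and 2.59 on ERRα-/- LPS arrays, against 3.31, 3.75 and 3.36 on ERRα+/+ LPS arrays. In PBS cultures Sparc read 2.56, 2.71 and 2.84 in ERRα-/- cells, against 4.19, 4.16 and 3.86 in ERRα+/+ cells. Every ERRα-/- value lay below every ERRα+/+ value of the same treatment, with an averaged difference of -1.13 ± 0.15 (2.18-fold lower, adjusted p = 0.00457). A second Sparc probe gave -1.11 (adjusted p = 0.0367). Fn1, which encodes fibronectin, the adhesive matrix protein bound by integrins, read -0.68, 0.29 and 0.20 in ERRα-/- LPS cells, against 0.80, 1.59 and 1.27 in ERRα+/+ LPS cells. Under PBS it read -0.25, 0.074 and 0.17 in ERRα-/- cells, against 2.30, 1.82 and 1.40 in ERRα+/+ cells. Fn1 was thus separated by genotype under both treatments, and its averaged difference was -1.56 ± 0.22 (2.95-fold lower, adjusted p = 0.00749).

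Col5a1, Postn and Thbs2 were dim genes. Col5a1 encodes a chain of type V collagen, which regulates fibril assembly, Postn encodes periostin, and Thbs2 encodes a thrombospondin. Postn and Thbs2 were well above background on none of the 6 ERRα-/- arrays, on 2 of 3 ERRα+/+ LPS arrays and on 3 of 3 ERRα+/+ PBS arrays. Postn read -4.03, -3.84 and -4.56 in ERRα+/+ LPS cells and -3.17, -3.36 and -2.78 in ERRα+/+ PBS cells. Against the lowest signal flagged as above background on each array, Postn was 3.07-fold lower in ERRα-/- than in ERRα+/+ cells under PBS. This fold is an estimate and not a strict lower bound. On ERRα-/- PBS replicate 2 Postn read -5.16, over that array's lowest such signal of -5.32, without counting as above background. Its measured PBS difference of -2.54 ± 0.50 was not called (adjusted p = 0.0754), and passed with the replicate number as a block (adjusted p = 0.0497). The averaged Postn call had an adjusted p of 0.0179. By the same estimate Thbs2 was 2.03-fold lower in ERRα-/- PBS cells. Its measured PBS difference of -1.80 ± 0.39 was not called (adjusted p = 0.114), and its averaged difference had an adjusted p of 0.0332. Col5a1 read -4.40, -3.99 and -4.56 on ERRα-/- LPS arrays, against -2.90, -3.22 and -3.55 on ERRα+/+ LPS arrays, with 1 and 2 of 3 arrays above background. Under PBS it read -4.27, -4.09 and -3.98 on ERRα-/- arrays (2 of 3 above background), against -2.54, -2.93 and -3.41 on ERRα+/+ arrays, and its averaged difference was -1.12 ± 0.18 (adjusted p = 0.0123). The Postn call ended without ERRα-/- LPS replicate 3, ERRα+/+ LPS replicate 2 or ERRα+/+ PBS replicate 3 (adjusted p up to 0.0586). The Thbs2 call ended without any 1 of 8 arrays, which were all but ERRα-/- LPS replicate 1, ERRα+/+ LPS replicate 3 and ERRα+/+ PBS replicates 1 and 3 (adjusted p up to 0.0950).

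The genes of type I and type III collagen, Col1a1, Col1a2 and Col3a1, were called in none of the comparisons, and their averaged genotype differences were below 0. Col1a1, a chain of type I collagen, read -2.48, -0.86 and -1.27 on ERRα-/- LPS arrays, against -0.067, -0.27 and -1.22 on ERRα+/+ LPS arrays, and -1.15, -1.13 and -1.08 on ERRα-/- PBS arrays, against 0.70, 0.36 and -0.63 on ERRα+/+ PBS arrays. The groups overlapped under LPS and not under PBS, and the averaged difference was -1.14 ± 0.32 (adjusted p = 0.173). Col1a2, the partner chain, read 0.24, 1.31 and 1.15 in ERRα-/- LPS cells, against 2.02, 1.87 and 1.14 in ERRα+/+ LPS cells. Under PBS Col1a2 read 0.75, 1.00 and 0.76 in ERRα-/- cells, against 2.47, 2.1 and 1.39 in ERRα+/+ cells, and its averaged difference was -0.97 ± 0.25 (adjusted p = 0.115). Across the 12 arrays the partner chains correlated with r = 0.960. Col3a1, which encodes type III collagen, read -1.28, -2.06 and -1.86 on ERRα-/- LPS arrays, against -1.36, -1.55 and -2.15 on ERRα+/+ LPS arrays. With PBS it read -2.30, -2.24 and -2.28 in ERRα-/- cells, against -0.39, -1.17 and -1.86 in ERRα+/+ cells, where the groups did not overlap. With normexp background correction Col3a1 was called lower with LPS in ERRα+/+ cells (-0.58, adjusted p = 0.033). On ERRα+/+ PBS arrays all 3 fibrillar genes were highest in replicate 1 and lowest in replicate 3. Col5a2 was not well above background on any of the 12 arrays.

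Of the small proteoglycans that decorate collagen, biglycan and decorin were measured and lumican was not. Bgn read -2.15, -1.82 and -2.01 in ERRα-/- LPS cells, against -2.16, -1.56 and -1.64 in ERRα+/+ LPS cells, and -2.61, -2.74 and -2.57 in ERRα-/- PBS cells, against -2.14, -2.40 and -1.93 in ERRα+/+ PBS cells. LPS raised Bgn in ERRα-/- cells by 0.65 ± 0.19 (adjusted p = 0.0167). It was no longer called without ERRα-/- LPS replicate 2 or ERRα-/- PBS replicate 2 (adjusted p up to 0.0688), or with normexp (0.0505). Dcn read -0.91, 0.58 and 0.10 on ERRα-/- LPS arrays, against 0.94, 0.78 and 0.10 on ERRα+/+ LPS arrays, and -0.41, -0.99 and -0.89 on ERRα-/- PBS arrays, against 1.11, 0.038 and -0.35 on ERRα+/+ PBS arrays. Its groups overlapped under LPS and nearly met under PBS, and it was called nowhere. Mgp, an inhibitor of matrix calcification, read -2.04, -1.04 and -1.25 in ERRα-/- LPS cells, against -1.04, -0.46 and -0.74 in ERRα+/+ LPS cells. With PBS it read -2.03, -1.08 and -1.07 in ERRα-/- cells, against -0.33, 0.02 and -0.32 in ERRα+/+ cells, and the averaged difference of -0.94 ± 0.23 missed the threshold (adjusted p = 0.0916). It passed with the replicate number as a block (adjusted p = 0.00706). Lum was above background on 2 of 3 arrays of ERRα-/- LPS, ERRα+/+ LPS and ERRα+/+ PBS cells and on 0 of 3 ERRα-/- PBS arrays, so it did not pass the filter.

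Lox went the other way. This gene encodes lysyl oxidase, the enzyme that crosslinks collagen and elastin. It read 1.73, 1.5 and 1.41 on ERRα-/- LPS arrays, against 0.90, 1.1 and 0.82 on ERRα+/+ LPS arrays. Lox in PBS cultures read -1.03, -1.68 and -1.79 in ERRα-/- cells, against -2.47, -2.26 and -2.42 in ERRα+/+ cells. Every ERRα-/- value was above every ERRα+/+ value of the same treatment, and the averaged difference was 0.74 ± 0.14 (1.68-fold higher, adjusted p = 0.0351). That call ended when any 1 of 10 arrays was left out, which were all but ERRα-/- PBS replicates 1 and 3 (adjusted p up to 0.0877). A second Lox probe gave a similar difference of 0.73 with an adjusted p of 0.154. LPS raised Lox 8.26-fold in ERRα-/- cells (3.05 ± 0.20, adjusted p = 3.82e-06) and 10.01-fold in ERRα+/+ cells (3.32 ± 0.20, adjusted p = 2.14e-06).

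**Figure D2:**
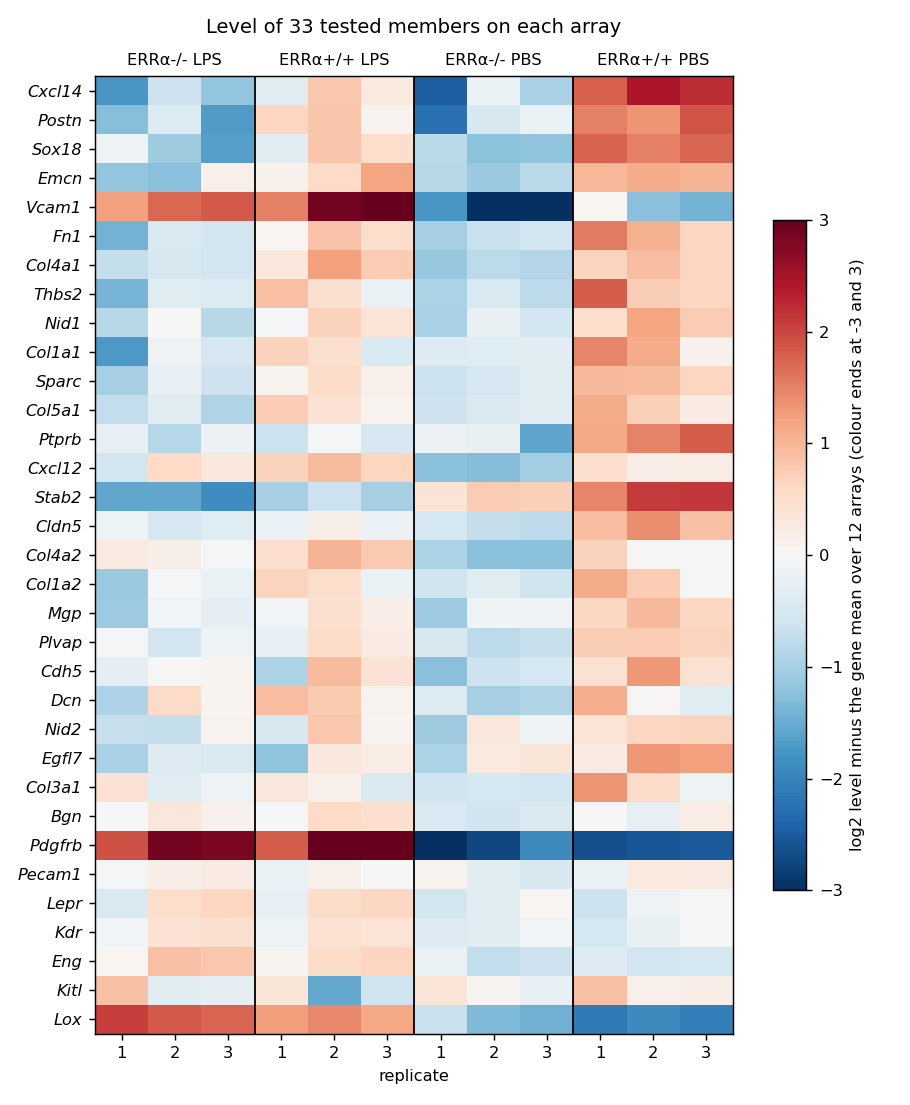
Each row is 1 of the 33 tested members, ordered by the averaged genotype difference, and each column is 1 array; colour gives the log2 level minus the mean of that gene over the 12 arrays. Most of the upper rows are blue on ERRα-/- arrays and red on ERRα+/+ PBS arrays, while Pdgfrb, Lox and Vcam1 are red on LPS arrays.

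Among the signals of the marrow niche, both chemokines were lower in ERRα-/- cells and the cytokine and the leptin receptor were not called. Cxcl12, the ligand of the receptor CXCR4, read -1.95, -0.81 and -1.09 on ERRα-/- LPS arrays, against -0.72, -0.46 and -0.75 on ERRα+/+ LPS arrays. In PBS cultures Cxcl12 read -2.66, -2.69 and -2.45 in ERRα-/- cells, against -0.89, -1.21 and -1.19 in ERRα+/+ cells. The genotypes did not overlap under either treatment, though by little under LPS, and the averaged difference was -1.08 ± 0.18 (2.11-fold lower, adjusted p = 0.0179). That call ended without ERRα+/+ LPS replicate 2 or ERRα-/- PBS replicate 2 (adjusted p up to 0.0632). LPS raised Cxcl12 in ERRα-/- cells by 1.32 ± 0.26 (adjusted p = 0.00191), but a second, dimmer probe gave 0.21 for the same comparison. For the genotype difference this second probe gave -1.21 (adjusted p = 0.169).

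Cxcl14, a chemokine of many epithelia and stromal cells, read -6.03, -4.91 and -5.46 on ERRα-/- LPS arrays, against -4.65, -3.49 and -4.0 on ERRα+/+ LPS arrays. With PBS it read -6.76, -4.50 and -5.26 in ERRα-/- cells, against -2.50, -1.87 and -2.07 in ERRα+/+ cells. It was above background on 0 of 3 ERRα-/- LPS arrays, 2 of 3 ERRα+/+ LPS arrays, 1 of 3 ERRα-/- PBS arrays and 3 of 3 ERRα+/+ PBS arrays. The difference under PBS was -3.36 ± 0.53 (adjusted p = 0.026), measured against ERRα-/- arrays of which 1 of 3 was above background. It was no longer called with quantile normalization (-3.16, adjusted p = 0.0526) or with normexp (-1.19, adjusted p = 0.106). With LPS Cxcl14 fell in ERRα+/+ cells (log2 difference -1.90 ± 0.53, adjusted p = 0.0131), and with normexp this difference was -0.67 and not called (adjusted p = 0.0679).

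Kitl, the ligand of the receptor KIT, read -1.69, -2.88 and -2.85 on ERRα-/- LPS arrays, against -2.21, -4.10 and -3.16 on ERRα+/+ LPS arrays, and -2.18, -2.50 and -2.82 on ERRα-/- PBS arrays, against -1.67, -2.41 and -2.36 on ERRα+/+ PBS arrays. It was called in no comparison, and its groups overlapped under both treatments. Its LPS difference in ERRα+/+ cells of -1.01 ± 0.47 was called with the replicate number as a block (adjusted p = 0.0115) and with normexp (0.0497). Lepr, the leptin receptor, which marks stromal cells of the marrow niche, read 2.26, 3.26 and 3.37 in ERRα-/- LPS cells, against 2.47, 3.27 and 3.34 in ERRα+/+ LPS cells. Among PBS arrays it read 2.17, 2.41 and 2.78 in ERRα-/- cells, against 2.07, 2.62 and 2.67 in ERRα+/+ cells. The averaged difference of -0.035 ± 0.24 was near 0, and 1 of 4 Lepr probes was detected. With the replicate number as a block Lepr was called higher with LPS in ERRα-/- cells (0.51, adjusted p = 0.0165) and in ERRα+/+ cells (0.57, adjusted p = 0.0103).

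LPS raised Vcam1 and Pdgfrb in both genotypes. Vcam1 encodes an adhesion molecule that binds an integrin on leukocytes. It read 2.82, 3.31 and 3.43 on ERRα-/- LPS arrays, against -0.16, -2.39 and -2.29 on ERRα-/- PBS arrays. In ERRα+/+ cells it read 3.09, 4.46 and 4.58 with LPS, against 1.63, 0.33 and 0.17 with PBS. The LPS difference was 4.80 ± 0.63 in ERRα-/- cells, with an adjusted p of 0.000198, and 3.33 ± 0.63 in ERRα+/+ cells, with one of 0.00177. A second probe was above background on all LPS arrays but on 1 of 3 ERRα-/- PBS arrays and 2 of 3 ERRα+/+ PBS arrays, so no fold is given for it. Under PBS the genotypes did not overlap and replicate 1 was the highest array of both, and the difference of -2.33 ± 0.63 was not called (adjusted p = 0.234). Pdgfrb, a receptor for platelet-derived growth factor on pericytes and fibroblasts, read 1.70, 2.65 and 2.61 on ERRα-/- LPS arrays, against -3.80, -2.94 and -2.12 on ERRα-/- PBS arrays. In ERRα+/+ cells it read 1.60, 2.94 and 3.08 with LPS, against -2.85, -2.78 and -2.74 with PBS. No LPS array overlapped a PBS array, and LPS raised Pdgfrb 38.7-fold in ERRα-/- cells (5.27 ± 0.47, adjusted p = 2.19e-05) and 40.2-fold in ERRα+/+ cells (5.33 ± 0.47, adjusted p = 1.82e-05). Pdgfra, the related receptor of fibroblasts, was above background on 1 of 3 ERRα+/+ LPS arrays, on 1 of 3 ERRα+/+ PBS arrays and on 0 ERRα-/- arrays.

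Among the endothelial genes, Cldn5, Sox18, Emcn, Plvap and Stab2 were called lower in ERRα-/- cells in the averaged comparison. Cldn5, a claudin of endothelial tight junctions, read -3.31, -3.68 and -3.53 on ERRα-/- LPS arrays, against -3.34, -2.98 and -3.35 on ERRα+/+ LPS arrays. Among PBS arrays Cldn5 read -3.68, -3.87 and -3.94 in ERRα-/- cells, against -2.23, -1.77 and -2.27 in ERRα+/+ cells. The separation lay under PBS, where the difference was -1.74 ± 0.19 (3.33-fold lower, adjusted p = 0.00651), against -0.28 ± 0.19 under LPS, where the groups overlapped. With LPS Cldn5 fell in ERRα+/+ cells (log2 difference -1.13 ± 0.19, adjusted p = 0.000778), a comparison that uses the same ERRα+/+ PBS arrays. Plvap, which forms the diaphragms of endothelial openings, read -1.78, -2.31 and -1.87 on ERRα-/- LPS arrays, against -1.97, -1.17 and -1.47 on ERRα+/+ LPS arrays. In PBS cultures Plvap read -2.22, -2.51 and -2.42 in ERRα-/- cells, against -1.0, -0.97 and -1.05 in ERRα+/+ cells. The PBS groups did not overlap (-1.38 ± 0.21, adjusted p = 0.026) and the averaged difference was -0.91 ± 0.15 (adjusted p = 0.0165), but a second Plvap probe gave -0.32 (adjusted p = 0.683). The averaged call also ended without ERRα+/+ LPS replicate 3, ERRα-/- PBS replicates 2 or 3, or ERRα+/+ PBS replicate 2 (adjusted p up to 0.0597).

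Stab2, a scavenger receptor of sinusoidal endothelium that takes up hyaluronan, moved with genotype and with LPS. It read -1.81, -1.81 and -2.12 on ERRα-/- LPS arrays, against -1.24, -0.90 and -1.24 on ERRα+/+ LPS arrays. Under PBS it read 0.17, 0.52 and 0.47 in ERRα-/- cells, against 1.22, 1.85 and 1.88 in ERRα+/+ cells. All 4 groups were apart from each other, and the averaged genotype difference was -1.03 ± 0.15 (adjusted p = 0.00741). LPS lowered Stab2 4.92-fold in ERRα-/- cells (-2.30 ± 0.21, adjusted p = 2.27e-05) and 6.84-fold in ERRα+/+ cells (-2.77 ± 0.21, adjusted p = 6.93e-06).

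Sox18, a transcription factor of vessel development, and Emcn, an endothelial sialomucin, were above background on 0 of 6 ERRα-/- arrays, on 1 of 3 ERRα+/+ LPS arrays and on 3 of 3 ERRα+/+ PBS arrays. Sox18 read -5.33, -4.17 and -4.47 in ERRα+/+ LPS cells and -3.23, -3.50 and -3.26 in ERRα+/+ PBS cells. Against the lowest processed signal flagged as above background, Sox18 in ERRα-/- PBS cells was 2.72-fold lower than in ERRα+/+ PBS cells. This fold is not a strict lower bound. The limma call under PBS (adjusted p = 0.0218) belongs to the measured difference of -2.76 ± 0.38, whose ERRα-/- readings were below background. With normexp that difference was -0.82 and not called (adjusted p = 0.114). Emcn read -4.82, -4.39 and -3.77 in ERRα+/+ LPS cells and -3.97, -3.85 and -3.94 in ERRα+/+ PBS cells. By the same estimate it was 1.81-fold lower in ERRα-/- PBS cells. Its measured PBS difference of -1.96 ± 0.36 was not called (adjusted p = 0.0557), and passed with the replicate number as a block (adjusted p = 0.0196). Averaged over both treatments, Sox18 (adjusted p = 0.00461) and Emcn (adjusted p = 0.011) were called lower. Ptprb, a phosphatase of endothelial cells, read -4.67, -4.72 and -6.07 on ERRα-/- PBS arrays (2 of 3 above background), against -3.34, -3.0 and -2.68 on ERRα+/+ PBS arrays. Under LPS it was above background on 0 of 3 ERRα-/- arrays and 1 of 3 ERRα+/+ arrays. Ptprb was called lower in ERRα-/- cells under PBS (-2.14 ± 0.37, adjusted p = 0.0387), while the averaged difference was not called (adjusted p = 0.0911).

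The other endothelial receptors and junction proteins were not called between genotypes. Cdh5, the cadherin of endothelial junctions, read -3.12, -2.88 and -2.76 on ERRα-/- LPS arrays, against -3.81, -1.91 and -2.43 on ERRα+/+ LPS arrays, and -4.10, -3.48 and -3.38 on ERRα-/- PBS arrays, against -2.40, -1.56 and -2.38 on ERRα+/+ PBS arrays. The groups overlapped under LPS and not under PBS, where the difference was -1.54 ± 0.43 (adjusted p = 0.261). Egfl7, a secreted protein of vessels, read -0.71, -0.13 and -0.19 in ERRα-/- LPS cells, against -0.94, 0.57 and 0.48 in ERRα+/+ LPS cells. Under PBS Egfl7 read -0.70, 0.55 and 0.63 in ERRα-/- cells, against 0.51, 1.55 and 1.49 in ERRα+/+ cells, and replicate 1 was the lowest array of every group. With the replicate number as a block Egfl7 was called lower in ERRα-/- cells under PBS (-1.02, adjusted p = 0.0373) and on average (-0.70, adjusted p = 0.0234), and lower with LPS in ERRα-/- cells (-0.51, adjusted p = 0.0378) and in ERRα+/+ cells (-1.15, adjusted p = 0.000983). Pecam1, an adhesion molecule that leukocytes also carry, read -2.03, -1.78 and -1.73 on ERRα-/- LPS arrays, against -2.17, -1.83 and -1.96 on ERRα+/+ LPS arrays, and -1.86, -2.30 and -2.45 on ERRα-/- PBS arrays, against -2.16, -1.67 and -1.70 on ERRα+/+ PBS arrays. Its averaged difference was -0.11 ± 0.14 (adjusted p = 0.930). Eng, a co-receptor of TGF-beta, read 1.90, 2.73 and 2.66 on ERRα-/- LPS arrays, against 1.66, 1.12 and 1.23 on ERRα-/- PBS arrays, and 1.92, 2.39 and 2.49 on ERRα+/+ LPS arrays, against 1.47, 1.28 and 1.31 on ERRα+/+ PBS arrays. LPS raised Eng in ERRα-/- cells (1.09 ± 0.25, adjusted p = 0.0045) and in ERRα+/+ cells (0.92 ± 0.25, adjusted p = 0.0122). The rise in ERRα+/+ cells was no longer called without ERRα+/+ LPS replicate 3 (adjusted p = 0.0517). The angiopoietin receptor Tek was above background on 1 of 12 arrays, an ERRα+/+ LPS array. Tie1 was so on 1 of 3 ERRα-/- LPS, 2 of 3 ERRα+/+ LPS, 0 of 3 ERRα-/- PBS and 2 of 3 ERRα+/+ PBS arrays.

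Kdr, a VEGF receptor, gave LPS differences of different size from its probes. The brighter probe read 3.68, 4.2 and 4.25 on ERRα-/- LPS arrays, against 3.38, 3.44 and 3.69 on ERRα-/- PBS arrays, and LPS did not pass the threshold (0.54 ± 0.23, adjusted p = 0.068). In ERRα+/+ cells it read 3.62, 4.23 and 4.18 with LPS, against 3.24, 3.55 and 3.74 with PBS (0.50 ± 0.23, adjusted p = 0.0944). With the replicate number as a block both differences of this probe were called (adjusted p = 0.00453 in ERRα-/- and 0.00736 in ERRα+/+ cells). The dimmer probe, above background on all 12 arrays, read 3.08, 4.09 and 4.08 on ERRα-/- LPS arrays, against 0.70, 0.12 and 0.037 on ERRα-/- PBS arrays, a difference of 3.46 (adjusted p = 0.000304). On this probe ERRα+/+ cells read 2.42, 3.64 and 3.83 with LPS, against 1.29, -0.11 and -0.26 with PBS, a difference of 2.99 (adjusted p = 0.000774). Neither probe was called between genotypes.

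**Figure D3:**
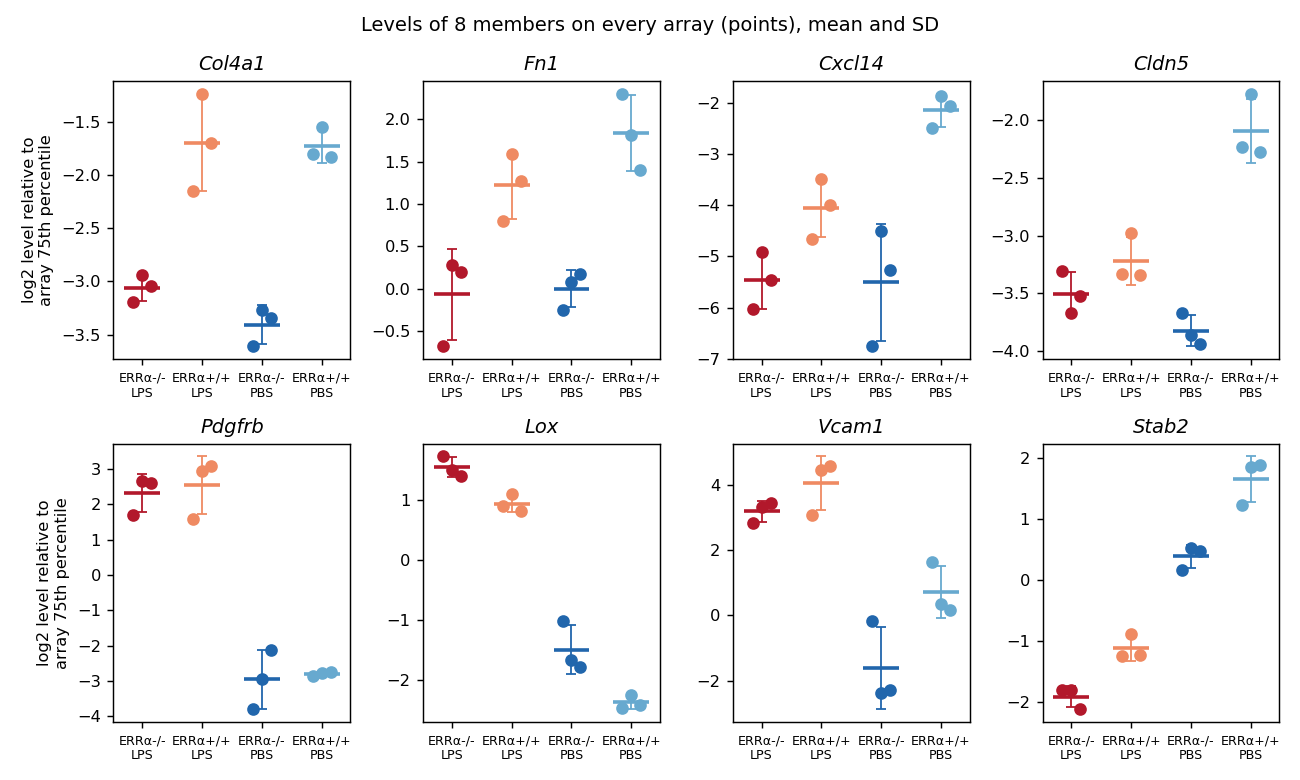
Points are the log2 levels of 8 members on every array, with the mean and SD of 3 arrays per group. Col4a1 and Fn1 are lower on ERRα-/- arrays under both treatments, Cldn5 differs by genotype under PBS, Pdgfrb, Lox and Vcam1 are higher with LPS in both genotypes, and Stab2 is lower with LPS; Cxcl14 was above background on 1 of 6 ERRα-/- arrays.

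The genotype difference was also counted by treatment. With PBS, 11 of 33 members were called lower in ERRα-/- cells and 0 higher, against 0.381% and 0.0686% of all genes, and 7 of the 23 members above background on all arrays were called lower. The 11 were Col4a1, Col4a2, Sparc, Fn1, Cxcl12, Cxcl14, Cldn5, Sox18, Ptprb, Plvap and Stab2. The median difference was -1.26, against -0.03 over all genes. ERRα-/- arrays lay below ERRα+/+ arrays without overlap for 25 of the 33 members under PBS, against 8.65% of all genes, and for 15 of the 23. None of the 11 calls was kept without each array in turn: the number called without 1 array ranged between 0 and 12, and was 0 without ERRα-/- PBS replicate 2 or replicate 3. With normexp 4 of the 11 stayed called (Sparc, Fn1, Cldn5 and Stab2), and with quantile normalization 8, without Cxcl12, Cxcl14 and Ptprb. With the replicate number as a block, 17 members were called lower, the further ones being Col5a1, Postn, Nid1, Mgp, Emcn and Egfl7, against 1.56% of all genes in either direction, and within slide 2, which has 2 arrays per group, 19 were called lower and 1 higher, against 9.72% of all genes. Without ERRα+/+ PBS replicates 2 and 3, the arrays with the wider spot spread, 1 member was called lower under PBS and 8 in the averaged comparison, against 0.229% and 0.846% of all genes in either direction (limma; an alternative chosen after seeing the data).

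With LPS, 0 of 33 members were called by genotype, against 0.13% of all genes, and 15 had an unadjusted p under 0.05. The median difference was -0.64, against -0.01 over all genes. ERRα-/- arrays lay below ERRα+/+ arrays without overlap for 10 members, against 7.37% of all genes, and for 6 of the 23. The same 10 members were below without overlap under PBS as well (Col4a1, Col4a2, Col5a1, Sparc, Fn1, Postn, Cxcl12, Cxcl14, Thbs2 and Stab2), against 1.92% of all genes. With the replicate number as a block, 2 members were called lower, against 1.02% of all genes in either direction, Col4a1 (adjusted p = 0.0132) and Nid1 (adjusted p = 0.0199). Within slide 2, 10 were called lower and 1 higher, against 17.4% of all genes. Whether the genotype difference depends on LPS was tested as the interaction, in which 0 of 33 members and 0% of all genes were called (limma), and 7 members had an unadjusted p under 0.05. Of these 7, 3 passed the filter only through ERRα+/+ PBS cells, as did 6 of the 15 under LPS. The share of all genes at that unadjusted threshold was not counted, so the 15 and the 7 say nothing particular about the members.

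Of the 16 members called in the averaged comparison, 10 kept their call without each array in turn: Col4a1, Col4a2, Col5a1, Sparc, Fn1, Cxcl14, Cldn5, Sox18, Emcn and Stab2. Of these, Col5a1, Cxcl14, Sox18 and Emcn passed the filter only through ERRα+/+ PBS cells. The filter was not redone without each array, so their kept calls reuse the same dim readings and support nothing further. With another background correction (normexp on the raw spot and background medians), 7 of the 16 stayed called: Col4a1, Col4a2, Sparc, Fn1, Cxcl12, Cldn5 and Stab2. The calls of Col5a1, Postn, Lox, Cxcl14, Thbs2, Nid1, Sox18, Emcn and Plvap ended there, with smaller differences for dim genes, such as -0.68 for Cxcl14 (adjusted p = 0.182), against -2.39 ± 0.37 with the processed signal. With quantile normalization 14 stayed called, and Nid1 (adjusted p = 0.0569) and Thbs2 (adjusted p = 0.0808) did not.

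The names of the gene groups were checked against defining markers. Of the 7 members that define fibroblasts (Col1a1, Col1a2, Col3a1, Dcn, Lum, Pdgfra and Postn), 5 were tested. Their summed linear level, in multiples of the array's 75th percentile, was 2.32 to 4.78 in ERRα-/- LPS cells, against 3.97 to 7.39 in ERRα+/+ LPS cells, and 2.94 to 3.20 in ERRα-/- PBS cells, against 4.47 to 10.2 in ERRα+/+ PBS cells. Of the 7 that define endothelium (Cdh5, Kdr, Tek, Tie1, Cldn5, Emcn and Egfl7), 5 were tested. Their sum was 13.6 to 20.2 in ERRα-/- LPS cells, against 13.0 to 20.7 in ERRα+/+ LPS cells, and 11.2 to 14.6 in ERRα-/- PBS cells, against 11.4 to 16.6 in ERRα+/+ PBS cells, which overlapped. Kdr alone made up 12.8 to 19.0 of the sum in ERRα-/- LPS cells, against 12.3 to 18.7 in ERRα+/+ LPS cells, and 10.4 to 12.9 in ERRα-/- PBS cells, against 9.47 to 13.3 in ERRα+/+ PBS cells. The other 4 tested genes summed to 0.839 to 1.14 in ERRα-/- LPS cells, against 0.725 to 1.92 in ERRα+/+ LPS cells, and to 0.772 to 1.73 in ERRα-/- PBS cells, against 1.89 to 3.64 in ERRα+/+ PBS cells, without overlap under PBS. Tek was above background on 1 array and Tie1 and Pdgfra on a few, while Kdr was above background on all 12, so the list is called by its genes and not as a cell type.

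Further markers of other cells were measured beside the members. Of 22 further endothelial markers, 15 were tested. In the averaged comparison 4 of these were called lower and 0 higher, against 0.953% and 0.374% of all genes. The 4 were Esam (-1.26), Robo4 (-1.56), Cd34 (-1.04) and Ecscr (-1.25), named after their values were seen. The other 11 were not called, and the list median was -0.80. The summed linear level of the 15 was 12.9 to 14.1 in ERRα-/- LPS cells, against 18.8 to 22.0 in ERRα+/+ LPS cells. With PBS this sum was 15 to 17.1 in ERRα-/- cells, against 22.3 to 25.4 in ERRα+/+ cells. The genotypes did not overlap under either treatment. Erg, Sox7, Clec14a and Prox1 of this further list were above background on no array. Of 20 further fibroblast and mural markers, 11 were tested. Of these, 2 were called lower (Acta2 -1.05 and Myl9 -1.19) and 9 were not called, against 0.953% of all genes called lower. The list median was -0.18. The sum of the 11 was 11.2 to 23.9 in ERRα-/- LPS cells, against 19.8 to 20.7 in ERRα+/+ LPS cells. With PBS it was 10.2 to 12.2 in ERRα-/- cells, against 12 to 23.0 in ERRα+/+ cells, so that the genotypes overlapped. Tcf21, Des, Rgs5, Dpt and Mfap5 of that list were above background on no array.

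Markers of megakaryocytes and platelets moved in the same direction as the members. All 10 were tested, and 8 were called lower in ERRα-/- cells averaged over both treatments, against 0.953% of all genes, with a list median of -1.11. Among the 8 were Gp6, a platelet receptor for collagen, and Ppbp, a platelet chemokine. With PBS alone 7 were called lower, against 0.381% of all genes. The sum of the 10 was 108 to 114 in ERRα-/- LPS cells, against 168 to 217 in ERRα+/+ LPS cells. With PBS it was 73.3 to 75.8 in ERRα-/- cells, against 99.1 to 153 in ERRα+/+ cells. The genotypes did not overlap under either treatment. Of 11 macrophage markers, 0 were called by genotype, and their median was 0.26. Their sum overlapped, with 1200 to 1660 in ERRα-/- PBS cells, against 793 to 1479 in ERRα+/+ PBS cells. Of 11 markers of neutrophils and mast cells, 0 were called, with a median of -0.58 on average and -1.07 under PBS. Their sum was 205 to 247 in ERRα-/- PBS cells, against 271 to 388 in ERRα+/+ PBS cells, without overlap. Under LPS that sum overlapped (274 to 435 in ERRα-/-, against 232 to 460 in ERRα+/+ cells). The part of these cells in the members' differences was not tested.

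**Figure D4:**
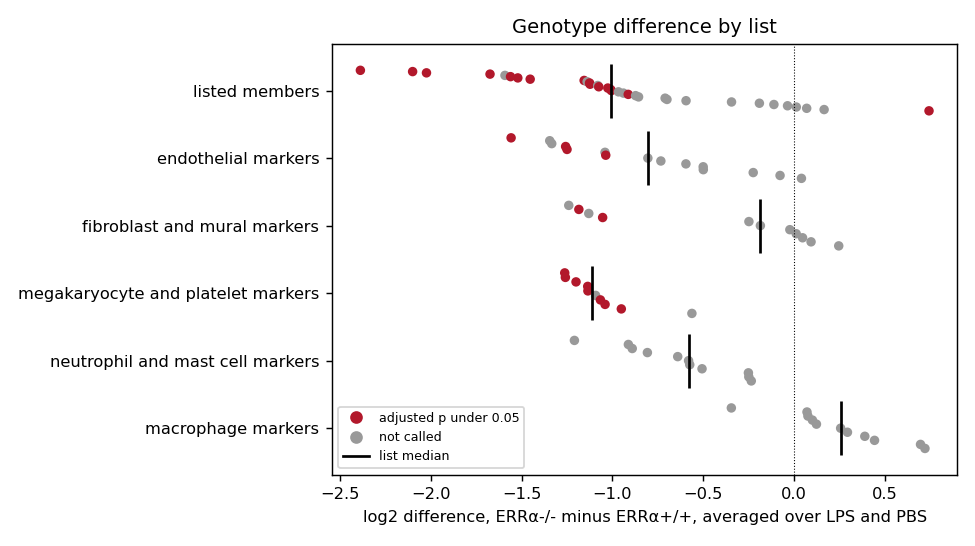
Each point is 1 tested gene, placed by its log2 difference of ERRα-/- minus ERRα+/+ cells averaged over LPS and PBS; black bars are list medians and red points passed the threshold. The members and the megakaryocyte list have medians of -1.01 and -1.11, and the macrophage list has a median of 0.26.

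LPS raised a small set of the members in both genotypes and lowered Stab2 in both. In ERRα-/- cells, 7 of 33 members were called higher and 1 lower with LPS, against 24.9% and 25.6% of all genes. In ERRα+/+ cells, 4 were called higher and 6 lower, against 21.8% and 24.1%. The members' share was in no case above that of all genes. Pdgfrb, Lox, Vcam1 and Eng were called higher in both genotypes, and Col4a2, Cxcl12 and Bgn in ERRα-/- cells. In ERRα+/+ cells Sparc (-0.60 ± 0.21), Cxcl14, Cldn5, Sox18 and Ptprb (-1.89 ± 0.37) were called lower beside Stab2. Of these, Cxcl14, Sox18 and Ptprb passed the filter only through ERRα+/+ PBS cells, and Ptprb was above background on 1 of 3 ERRα+/+ LPS arrays. With normexp Sox18 (-0.28, adjusted p = 0.262) and Cxcl14 were no longer called, and the Ptprb difference was -0.50. The Sparc call (adjusted p = 0.0372) ended without any 1 of 7 arrays (ERRα-/- LPS replicate 3, ERRα+/+ LPS replicates 1 and 3, ERRα-/- PBS replicates 2 and 3, ERRα+/+ PBS replicates 1 and 2; adjusted p up to 0.116), and a second Sparc probe gave -0.34 (adjusted p = 0.385).

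The median LPS difference of the members was 0.24 in ERRα-/- cells and -0.48 in ERRα+/+ cells, against 0.04 and 0.00011 over all genes. With quantile normalization the medians of all genes shifted to -0.15 and -0.14, and those of the members were 0.23 and -0.47. With the replicate number as a block, 7 members were called higher (Col4a2, Lepr and Kdr in addition) and 10 lower (Nid1, Mgp, Kitl and Egfl7 in addition) in ERRα+/+ cells, against 60.6% of all genes in either direction, and within slide 2, 9 higher and 8 lower, against 72.5% of all genes in either direction. Within slide 2 of ERRα-/- cells, 11 were called higher and 2 lower, against 73.6%. Without ERRα+/+ PBS replicates 2 and 3, 2 were called higher and 3 lower in ERRα+/+ cells, against 22.2% of all genes in either direction. A difference in LPS response between genotypes was called for 0 members.

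**Figure D5:**
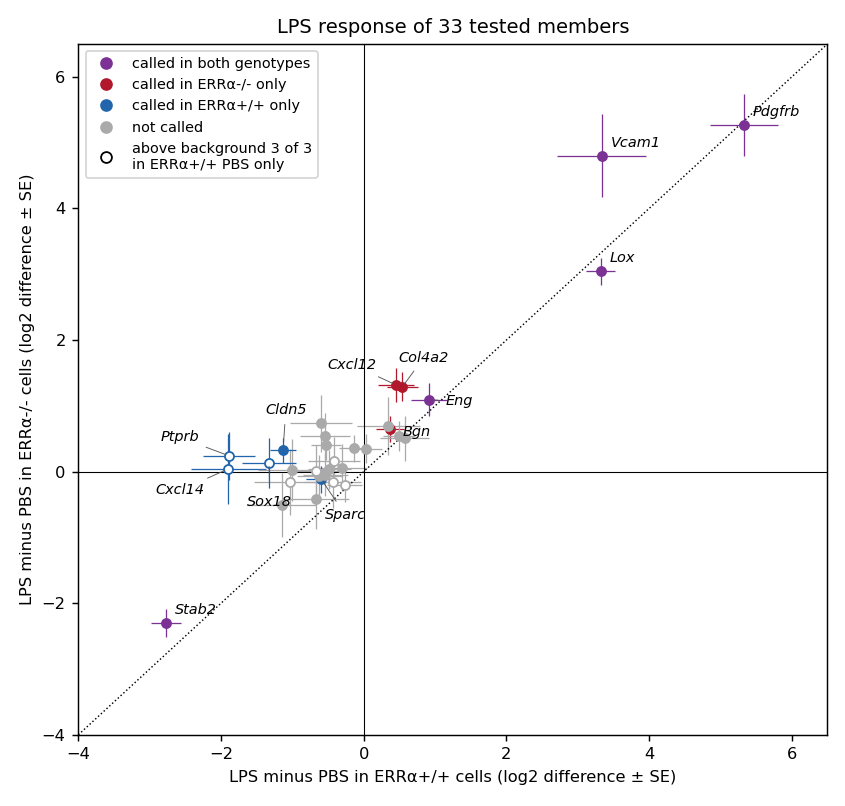
The vertical axis gives the log2 difference of LPS minus PBS in ERRα-/- cells and the horizontal axis the same in ERRα+/+ cells, with standard errors, for 33 members; the dotted line marks equal responses and open points passed the filter only through ERRα+/+ PBS cells. Pdgfrb, Lox, Vcam1 and Eng lie in the upper right and Stab2 in the lower left.

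The partners of these genes were counted from lists of related genes. Beside the LPS counts of every list below stand 24.9% of all genes called higher and 25.6% lower in ERRα-/- cells. In ERRα+/+ cells these shares were 21.8% and 24.1%. For the averaged genotype difference they were 0.374% higher and 0.953% lower. The lists are short, and their counts are descriptions only. Of 16 tested genes of collagen biosynthesis and other collagens, 0 were called by genotype, and with LPS 2 were called higher and 1 lower in ERRα-/- cells and 1 each way in ERRα+/+ cells. Loxl3, a relative of Lox, was called lower with LPS in both genotypes (-2.17 ± 0.35 in ERRα-/- and -2.38 ± 0.35 in ERRα+/+ cells), opposite to Lox. Of 14 other matrix genes, 3 were called lower in ERRα-/- cells averaged over treatments (the laminin genes Lama4 and Lamb1, and Hspg2, which encodes perlecan; named after their values were seen), and with LPS 5 were called higher and 1 lower in ERRα-/- cells and 3 higher in ERRα+/+ cells. Among those raised, Agrn, a heparan sulfate proteoglycan, rose by 2.73 ± 0.17 in ERRα-/- and 3.62 ± 0.17 in ERRα+/+ cells, and Fbn1, the microfibril protein fibrillin, by 3.03 ± 0.48 and 1.95 ± 0.48.

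Receptors that bind these matrix proteins or VCAM1 were counted next. Of 15 tested, 1 was called lower in ERRα-/- cells (Itgb3, named after its value was seen), and with LPS 6 were called higher and 2 lower in each genotype. Itga4, the integrin chain that binds VCAM1 and fibronectin, rose with LPS by 1.82 ± 0.33 in ERRα-/- and 1.96 ± 0.33 in ERRα+/+ cells, and Itga5, of the fibronectin receptor, by 3.25 ± 0.37 and 3.19 ± 0.37. Of 12 partners in PDGF, TGF-beta and niche signalling, 0 were called by genotype, and with LPS 5 were called lower in ERRα-/- and 6 in ERRα+/+ cells. Cxcr4, the receptor of CXCL12, fell with LPS by 4.15 ± 0.35 in ERRα-/- and by 4.19 ± 0.35 in ERRα+/+ cells. Of 11 partners in VEGF and angiopoietin signalling, 0 were called by genotype, and with LPS 5 were called each way in ERRα-/- cells and 4 each way in ERRα+/+ cells, among them Flt1, a VEGF receptor, which rose by 2.82 ± 0.63 and 1.85 ± 0.63.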

How the data were processed

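RNA from 12 cultures was hybridised to 1-colour Agilent arrays, 3 per group, and groups and replicates came from the sample labels. The deposited files hold spot intensity as written by Agilent Feature Extraction 11.5.1.1, per the file headers (the submitters' processing notes name 9.3.2.1). The same headers record background subtraction and detrending within each array and no step between arrays. All files hold 62976 spots of 1 design, although the labels name different array formats for replicate 1 and for replicates 2 and 3, and give "Cell line" as the source of replicates 2 and 3. Depth has no meaning for arrays: their number limits the precision.

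Control spots and outlier flags were removed, leaving 59305 spots and 55681 probes, and spots of 1 probe were averaged as log2 signal minus the array's 75th percentile. Transcript accessions were matched to RefSeq (GRCm38.p6), which named 27509 probes and left 28172 without a name. Kept probes were well above background on 3 of 3 arrays of at least 1 group, and the brightest kept probe stood for its gene. Group means of all 12 arrays were fitted in limma 3.58.1 (R 4.3.3, the data.table package at 1.17.8) with Benjamini-Hochberg adjustment over 13116 genes, after the script had been tested on simulated data. A fold against a group with no array above background set the bright group's mean against a floor. Per array, the floor was the lowest signal of a probe well above background, or the member's own reading where higher. Some probes over that lowest signal still counted as background, so these folds are not strict lower bounds. Tables and figures were made with Python 3.11.15, numpy 2.4.6, pandas 2.3.3 and matplotlib 3.10.9.

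Members, lists and tests were chosen with earlier results of these data known. Named were all 38 members, those called or above background on all 12 arrays with their values, at most 4 genes of every other list (the called ones with the largest LPS difference; not all of these are given), and Esrra. One gene is not reported here. Genes of the other lists that were called by genotype, or were above background on no array, were named after their values were seen. The other lists held 162 entries in 10 lists; Col12a1 and Cd68 were not found on the array by name. Residuals of arrays with the same replicate number, taken from the labels, correlated at 0.14 to 0.78 in all 18 pairs. By the rule used, these numbers were therefore treated as a pairing of the samples. Arrays of different number on 1 slide also correlated (0.13 to 0.55), in an overlapping range, and arrays of different slides did so at -0.71 to -0.17. A pairing apart from the slide was thus not shown, and the replicate block may stand for the slide. The alternatives were quantile normalization, normexp with an offset of 50 on spot and background medians, no filter or a strict one, slide or replicate number as a block, slide 2 alone, the mean of a gene's probes, the authors' deposited values for the series (equal to the processed signal at all 62976 spots), and each array left out. Added after seeing the data were a fit without both ERRα+/+ PBS arrays of wide spot spread and one with the second probe of the 6 members that had more than 1 kept probe.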

Additional observations from a re-analysis of the deposited data

Results flagged for a closer look

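In 4 members every replicate was higher with LPS in ERRα-/- cells and lower with LPS in ERRα+/+ cells, a pattern also seen in 84 of 13116 genes (0.64%). Cldn5, the claudin of endothelial junctions, differed in its LPS response by 1.45 ± 0.26 (ERRα-/- minus ERRα+/+ response, log2). Its replicates changed by 0.37, 0.19 and 0.41 in ERRα-/- cells, against -1.11, -1.21 and -1.07 in ERRα+/+ cells. The difference for Cdh5 was 1.33 ± 0.61, with replicate changes of 0.98, 0.61 and 0.62 in ERRα-/- cells, against -1.41, -0.35 and -0.044 in ERRα+/+ cells. Col3a1 gave 1.08 ± 0.50, with 1.02, 0.18 and 0.41 in ERRα-/- cells, against -0.96, -0.38 and -0.29 in ERRα+/+ cells. Plvap gave 0.93 ± 0.30, with 0.44, 0.21 and 0.55 in ERRα-/- cells, against -0.97, -0.19 and -0.42 in ERRα+/+ cells. A second kept Plvap probe did not show the pattern: its mean LPS difference in ERRα+/+ cells was 0.13. On that probe ERRα+/+ replicates 2 and 3 read -2.91 and -2.76 with LPS, against -3.61 and -3.20 with PBS. Its ERRα+/+ replicate 1 read -3.38 with LPS, against -2.64 with PBS. In the limma test of the interaction none passed the threshold: the adjusted p was 1.00 for each, with unadjusted p-values of 0.000204 for Cldn5, 0.0533 for Cdh5, 0.0527 for Col3a1 and 0.0116 for Plvap.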

How the results depend on the processing

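Numbers are members called, in either direction, where the count moved by over 1.5 times, and the cause was not tested. For LPS in ERRα-/- cells (8 with all settings as described) it was 13 within slide 2, where 73.6% of all genes were called. For LPS in ERRα+/+ cells (10) it was 6 with the strict filter, which tests 23 members, 16 with slide as a block, 17 within slide 2, 17 with the replicate block and 5 without both ERRα+/+ PBS arrays of wide spot spread. For LPS in ERRα+/+ cells the share of all genes called was 46.4% with the strict filter and 62.9% with slide as a block. It was 72.5% within slide 2 and 60.6% with the replicate block. For genotype under LPS (0) the count was 1 with the strict filter (0.177% of all genes) and 2 with slide as a block (1.64%). It was 11 within slide 2 (17.4%) and 2 with the replicate block (1.02%). For genotype under PBS (11) it was 4 with normexp, 1 with no filter, 7 with the strict filter, 19 with slide as a block, 20 within slide 2, 17 with the replicate block and 1 without both ERRα+/+ PBS arrays. For the averaged genotype difference (16) it was 7 with normexp, 8 with the strict filter and 8 without both ERRα+/+ PBS arrays, and for the interaction (0) it was 3 within slide 2. Among all genes, genotype under PBS was called in 0.32% with normexp, 0.0239% with no filter and 0.39% with the strict filter. It was called in 2.13% with slide as a block, 9.72% within slide 2 and 1.56% with the replicate block. The averaged difference was called in 0.999% with normexp and 1.23% with the strict filter, and the interaction in 4.35% within slide 2. Without 1 array at a time the counts of members ranged over 7 to 11 for LPS in ERRα-/- cells, 8 to 13 for LPS in ERRα+/+ cells, 0 to 1 for genotype under LPS, 0 to 12 for genotype under PBS, 11 to 15 for the averaged difference and 0 to 0 for the interaction. The replicate block ended none of the 8, 10, 11 and 16 calls made without it. Over all members, comparisons and alternatives, 4185 single values stayed on their side of the threshold in the same direction, 196 lost a call and 113 gained one, and no called value changed sign. Dim signal limits the list: 5 of 38 members were not tested, and 8 were above background on 3 of 3 arrays of 1 group only.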
